A study of Homo sapiens with 5 samples.

Results

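The annexin genes encode a family of calcium-dependent phospholipid-binding proteins, and their mRNA was examined in GFP-SAS cells after knockdown or inhibition of Aurora kinase A. The members were the 10 genes ANXA1 to ANXA7, ANXA9, ANXA10 and ANXA11, out of 18239 genes with a value, and they were read by 41 probe sets that each name a single gene. The family was selected because ANXA10 was lower with the inhibitor and with both siRNAs than with their controls, so the values of those 3 contrasts are descriptions and support nothing further. GFP-SAS is a human tongue squamous cell carcinoma line that carries green fluorescent protein. Each of the 5 treatments lasted 24 h and was measured on 1 Affymetrix array: DMSO vehicle, 100 nM MLN8237 (alisertib, an Aurora kinase A inhibitor), a non-targeting siRNA (siNT), 10 nM siAURKA-1, and 10 nM siAURKA-2. With 1 array per treatment no test could be run, and how precise a difference is cannot be estimated. In the deposited values each probe set has its median over the 5 arrays at 0, so they are read here as centred log2 values. A value of 0 therefore marks the middle of a probe set's arrays, not absence, and values cannot rank genes by abundance. In 52.1% of probe sets 2 or more arrays are at exactly 0, so a 0 is often a tie.

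Annexins share a core of repeats that binds phospholipid when calcium rises, and they differ in the N-terminal tail, which binds partner proteins. Several of the tails hold S100 or other EF-hand proteins, and the complexes link membranes to one another and to the actin cortex. In epithelial cells annexins serve membrane repair, secretion and the control of inflammation. ANXA10 is an atypical member known from stomach mucosa and urothelium, and ANXA9 is atypical in that the calcium-binding sites of its repeats are altered.

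The 5 members that lay at least 1.5-fold apart in any of the 4 comparisons were ANXA10, ANXA2, ANXA3, ANXA4 and ANXA9. Their upstream regions are shown because they are the genes on which the results turn, and because they differ in base composition. Each is the 250 bases before the RefSeq start site in build GRCh38.p14, 5′ to 3′ on the strand of the gene. Capitals mark matches, on either strand, to 7 motifs: AP-1 (TGACTCA or TGAGTCA), the cAMP response element (TGACGTCA), the TATA box (TATAAA), the CCAAT box (CCAAT), the GC box (GGGCGG), the TEAD motif (GGAATG) and the E-box (CACGTG).
ANXA10, chr4:168092287-168092536, plus strand: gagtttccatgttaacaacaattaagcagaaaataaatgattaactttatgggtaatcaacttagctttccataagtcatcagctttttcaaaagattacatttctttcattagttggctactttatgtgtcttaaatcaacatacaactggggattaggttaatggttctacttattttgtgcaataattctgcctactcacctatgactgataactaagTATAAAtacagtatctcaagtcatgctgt
ANXA2, chr15:60397987-60398236, minus strand: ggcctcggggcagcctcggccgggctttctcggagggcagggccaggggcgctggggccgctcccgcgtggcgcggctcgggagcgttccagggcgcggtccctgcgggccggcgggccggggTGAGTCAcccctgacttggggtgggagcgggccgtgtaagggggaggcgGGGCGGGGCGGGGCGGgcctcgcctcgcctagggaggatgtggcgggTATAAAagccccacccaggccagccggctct
ANXA3, chr4:78551520-78551769, plus strand: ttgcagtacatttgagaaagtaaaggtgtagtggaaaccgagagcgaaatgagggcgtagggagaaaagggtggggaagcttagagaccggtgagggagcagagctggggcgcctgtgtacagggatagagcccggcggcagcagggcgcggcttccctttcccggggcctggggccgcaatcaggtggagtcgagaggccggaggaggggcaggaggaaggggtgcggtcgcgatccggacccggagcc
ANXA4, chr2:69643558-69643807, plus strand: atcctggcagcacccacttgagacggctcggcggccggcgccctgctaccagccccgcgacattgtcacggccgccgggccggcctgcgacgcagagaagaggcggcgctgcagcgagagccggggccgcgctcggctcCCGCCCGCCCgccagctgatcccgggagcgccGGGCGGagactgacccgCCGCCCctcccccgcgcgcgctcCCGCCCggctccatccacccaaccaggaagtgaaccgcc
ANXA9, chr1:150982042-150982291, plus strand: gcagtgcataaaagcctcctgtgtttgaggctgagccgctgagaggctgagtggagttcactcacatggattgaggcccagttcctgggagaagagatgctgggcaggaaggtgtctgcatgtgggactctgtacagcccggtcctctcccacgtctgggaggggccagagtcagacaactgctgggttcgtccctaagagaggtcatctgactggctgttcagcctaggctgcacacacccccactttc
All 10 members had an entry among the 27305 promoters of that table. The ANXA10 region was 31.2% G and C, and 2.29% of all promoters had a lower share. ANXA2 and ANXA4 lay at the other end, at 78.0% and 77.2%, while ANXA9 equalled the median of all promoters (58.0%) and ANXA3 was at 64.0%. A TATAAA match began 29 bases before the start of ANXA10 and 31 bases before that of ANXA2. The TATA letters were found in 4 of the 10 members (ANXA1, ANXA2, ANXA10 and ANXA11) and in 11.1% of all promoters. The AP-1 letters occurred in ANXA2 alone among the members and in 4.16% of all promoters. The GC box was found in 5 members, ANXA2 and ANXA4 among them, and in 42.3% of all promoters. In ANXA2 its 3 matches overlap one another by 1 base. ANXA6 held the E-box, found in 6.49% of all promoters. ANXA1, ANXA6 and ANXA7 held CCAAT, found in 33.0%. The TEAD and cAMP response letters were in 0 members and in 11.9% and 1.77% of promoters. ANXA3 and ANXA9 held none of the 7 motifs in this window, which says only that these letters are not there. The ANXA9 start site lies within the annotated span of the gene, so other starts may be used.

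The knockdown was visible at its target. AURKA, which encodes Aurora kinase A, stood at 0.15 with DMSO, 0.64 with MLN8237, 0.00 with siNT, -3.36 for siAURKA-1 and -2.64 for siAURKA-2. The median difference over all genes was 0.00 in each of the 4 comparisons, which the centring and the ties at 0 favour.

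ANXA10 spanned more of the scale than any other annexin. Its single probe set read 0.00 with DMSO, -1.18 with MLN8237, 1.32 with siNT, 0.40 for siAURKA-1 and -0.53 for siAURKA-2. The siNT array was the highest and the MLN8237 array the lowest, and their distance of 2.50 was the 16th largest range among the 18239 genes. Without replicates, it cannot be said which neighbours in this order of arrays differ beyond their spread. The middle gene of the table ranged over 0.22 and the middle annexin over 0.57. These ranges hold the values that led to the choice of the family, and ties at 0 are common in the table. Nothing is therefore read from setting them side by side.

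The differences that led to the choice of this family are given as folds. Relative to siNT, ANXA10 was lower 1.89-fold with siAURKA-1 (log2 difference -0.92) and 3.60-fold with siAURKA-2 (-1.85). With MLN8237 it was 2.27-fold lower than with DMSO (-1.18). Ordered from the lowest of all genes, these differences held ranks 311, 10 and 2. Both siRNA comparisons use the same siNT array, so they are not independent of each other. At any size, 2343 genes were lower in all 3 comparisons, and among annexins ANXA1 was the other one (-0.23, -0.03 and -0.09). Its siAURKA-2 difference turned to 0.01 with the mean of its probe sets and to 0.05 with the most variable one. In all 3 comparisons 2141 genes were higher, among them ANXA2, ANXA4 and ANXA7. At 1.5-fold or more 2 genes were lower in all 3, ANXA10 and NNMT. NNMT encodes nicotinamide N-methyltransferase and was named after its values were seen (-1.56, -0.94 and -0.82).

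The controls stood apart for ANXA10. The siNT array lay 2.49-fold above the DMSO array (1.32), the 19th highest difference among all genes between these arrays. Against DMSO instead of siNT, ANXA10 was higher with siAURKA-1 (0.40) and lower with siAURKA-2 (-0.53), and neither difference reached 1.5-fold. Against siNT instead of DMSO, MLN8237 gave -2.50, the lowest difference of all 18239 genes. The direction with siAURKA-1 therefore depends on the control array, while MLN8237 and siAURKA-2 were below both. NNMT shared the high siNT value (0.93 above DMSO) and with siAURKA-2 was level with DMSO (-0.01). The part of transfection and of the siNT sequence in the high siNT value was not tested.

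**Figure D1:**
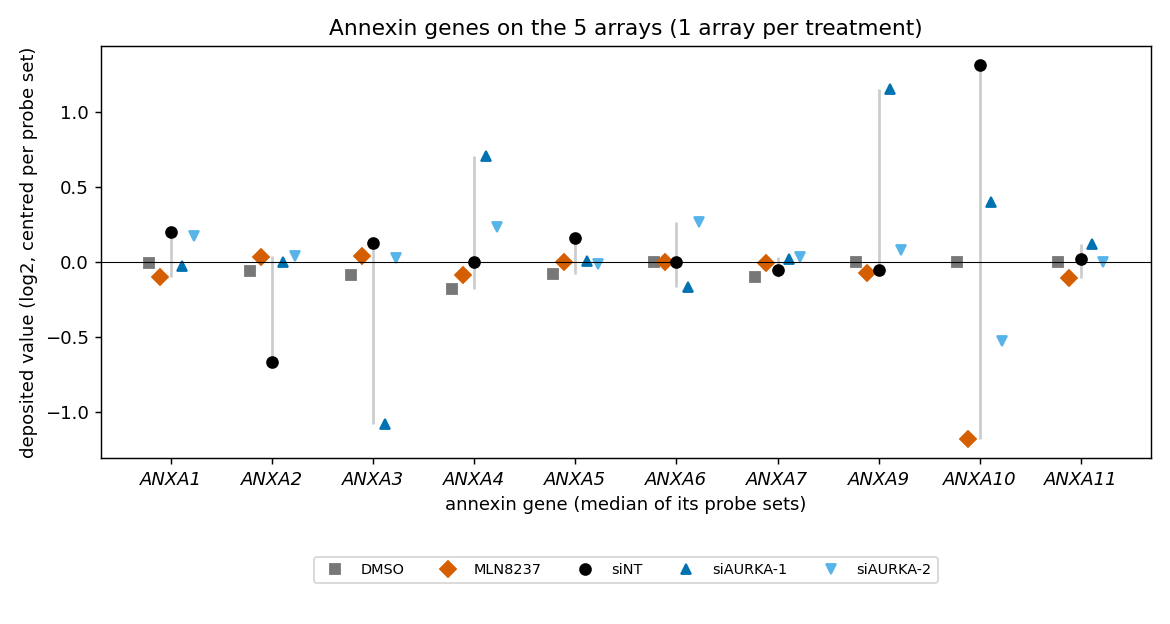
The vertical axis is the deposited log2 value, centred per probe set, and the horizontal axis lists the annexin genes, each as the median of its probe sets, with 1 symbol per array. ANXA10 spreads from -1.18 with MLN8237 to 1.32 with siNT, ANXA2 is low on the siNT array (-0.66), and ANXA3, ANXA4 and ANXA9 have 1 siAURKA-1 symbol far from the rest.

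With siAURKA-1, 5 of the 10 annexins lay at least 1.5-fold from siNT, 3 higher and 2 lower, where 7.05% of all genes did (2.57% higher and 4.48% lower). At 2-fold the count was 2, beside 1.96% of all genes. Against DMSO 3 annexins were past 1.5-fold (6.84% of all genes), and against the mean of both controls 3 (6.28%). The siAURKA-1 contrast helped to choose the family, and nothing is read from the counts. The higher genes were ANXA9, ANXA4 and ANXA2, and the lower were ANXA3 and ANXA10. The median of the family was -0.04, beside 0.00 for all genes, with 5 members above siNT and 5 below.

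ANXA3, known from neutrophils and from epithelial tumours, read -0.09 with DMSO, 0.04 with MLN8237, 0.13 with siNT, -1.08 for siAURKA-1 and 0.03 for siAURKA-2. The siAURKA-1 array stood alone below the other 4, which lay close together. The difference from siNT was 2.31-fold (-1.21), rank 144 from the lowest, and -1.31 and -1.11 on the 2 probe sets. Against DMSO it was -0.99, so the low value does not rest on the siNT array. With siAURKA-2 the difference was -0.10 and with MLN8237 0.12.

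ANXA9 gave nearly the mirror image. Its single probe set read 0.00 with DMSO, -0.07 with MLN8237, -0.05 with siNT, 1.15 for siAURKA-1 and 0.08 for siAURKA-2. Again the siAURKA-1 array stood apart, here above the rest. It was 2.31-fold above siNT (1.21), rank 58 from the highest, and 1.15 above DMSO.

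ANXA4, which binds secretory and apical membranes of epithelial cells, was also highest with siAURKA-1. Its median over 9 probe sets was -0.18 with DMSO, -0.08 with MLN8237, 0.00 with siNT, 0.71 for siAURKA-1 and 0.23 for siAURKA-2. Both AURKA siRNAs lay above the other 3 arrays, siAURKA-1 by more. The differences from siNT were 0.71 and 0.23, and those from DMSO 0.89 and 0.41. For siAURKA-1 all 9 probe sets were above siNT, from 0.17 to 0.87, and for siAURKA-2 all 9, from 0.01 to 0.34. Not every probe set had siAURKA-2 above DMSO: the exceptions read 0.00 beside 0.09 with DMSO, and 0.00 on both arrays. ANXA4 is the member for which both siRNAs were above both controls by the most, although only siAURKA-1 passed 1.5-fold.

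Set directly against each other, the AURKA siRNAs lay furthest apart for ANXA3, ANXA9, ANXA10 and ANXA4. The siAURKA-1 minus siAURKA-2 difference was -1.11 for ANXA3, 1.07 for ANXA9, 0.93 for ANXA10 and 0.48 for ANXA4. ANXA6, whose core has more repeats than that of other annexins, lay below siNT with siAURKA-1 (-0.17) and above it with siAURKA-2 (0.27). It read 0.00 on the DMSO, MLN8237 and siNT arrays.

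**Figure D2:**
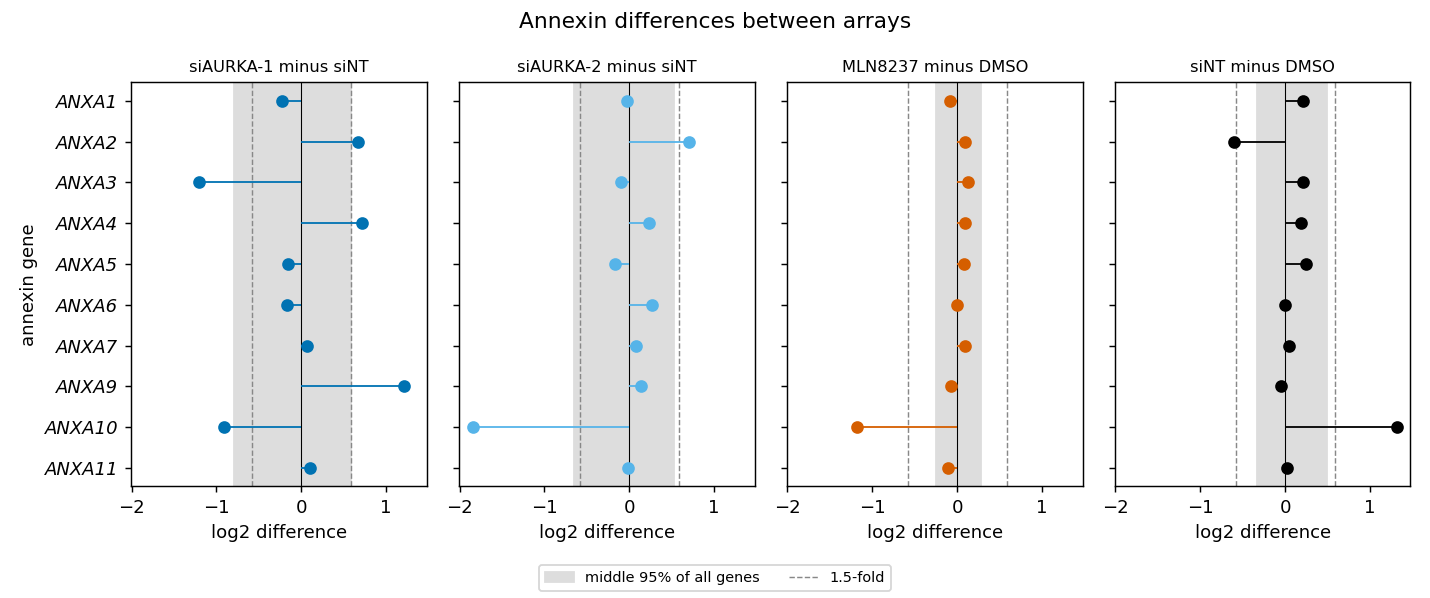
Each panel plots, for the 10 annexin genes, the log2 difference between the 2 arrays named above it, with the middle 95% of all genes in grey and dashed lines at 1.5-fold. With MLN8237 every annexin except ANXA10 (-1.18) lies between -0.11 and 0.12, whereas siAURKA-1 places ANXA3 and ANXA9 at -1.21 and 1.21.

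ANXA2, the plasma membrane annexin that pairs with S100A10, stood apart on the siNT array. It read -0.06 with DMSO, 0.03 with MLN8237, -0.66 with siNT, 0.00 for siAURKA-1 and 0.04 for siAURKA-2. The siNT array was the lowest for each of its 6 probe sets, while the gene's median on the other 4 arrays lay between -0.06 and 0.04. ANXA2 was 1.52-fold lower with siNT than with DMSO (-0.61), rank 92 from the lowest. The differences of the siRNAs from siNT, 0.66 and 0.70, were therefore differences from a low control: against DMSO they were 0.06 and 0.10. Single probe sets ranged from -0.99 to -0.44 for siNT minus DMSO. The 3 probe sets that name the processed pseudogenes ANXA2P1, ANXA2P2 and ANXA2P3, whose sequences closely resemble ANXA2, gave -0.66 to -0.45 for the same difference. Signal of the gene and of its copies may not be separable on these probe sets.

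Between the controls, 2 of the 10 annexins differed at least 1.5-fold (siNT minus DMSO), ANXA10 higher and ANXA2 lower, where 2.08% of all genes did (1.53% higher and 0.554% lower). At 2-fold ANXA10 alone was past, beside 0.296% of all genes. The control arrays entered the contrasts that led to the choice of ANXA10, so nothing is read from these counts either. The median of the family was 0.11, beside 0.00 for all genes. ANXA1, ANXA3, ANXA4 and ANXA5 lay 0.18 to 0.24 above DMSO on the siNT array. For ANXA1 all 5 probe sets, and for ANXA5 all 6, were above DMSO.

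Probe sets that name ANXA8 together with its near-identical copy ANXA8L1 fall outside the members because they do not name a single gene. All 4 read highest with siNT, 0.41 to 0.48 above DMSO. They were below siNT with siAURKA-2 (-0.74 to -0.52) and with siAURKA-1 (-0.35 to -0.11), and from -0.28 to 0.00 against DMSO with MLN8237. With MLN8237 left aside, the order of siNT, siAURKA-1, DMSO and siAURKA-2, from high to low, was the same as for ANXA10. The MLN8237 array, lowest for ANXA10, was not the lowest by the median of these 4 probe sets. That median was -0.11 with MLN8237 and -0.22 with siAURKA-2. The 2 probe sets that name ANXA8L1 alone did not have siNT above DMSO (-0.13 and 0.00).

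**Figure D3:**
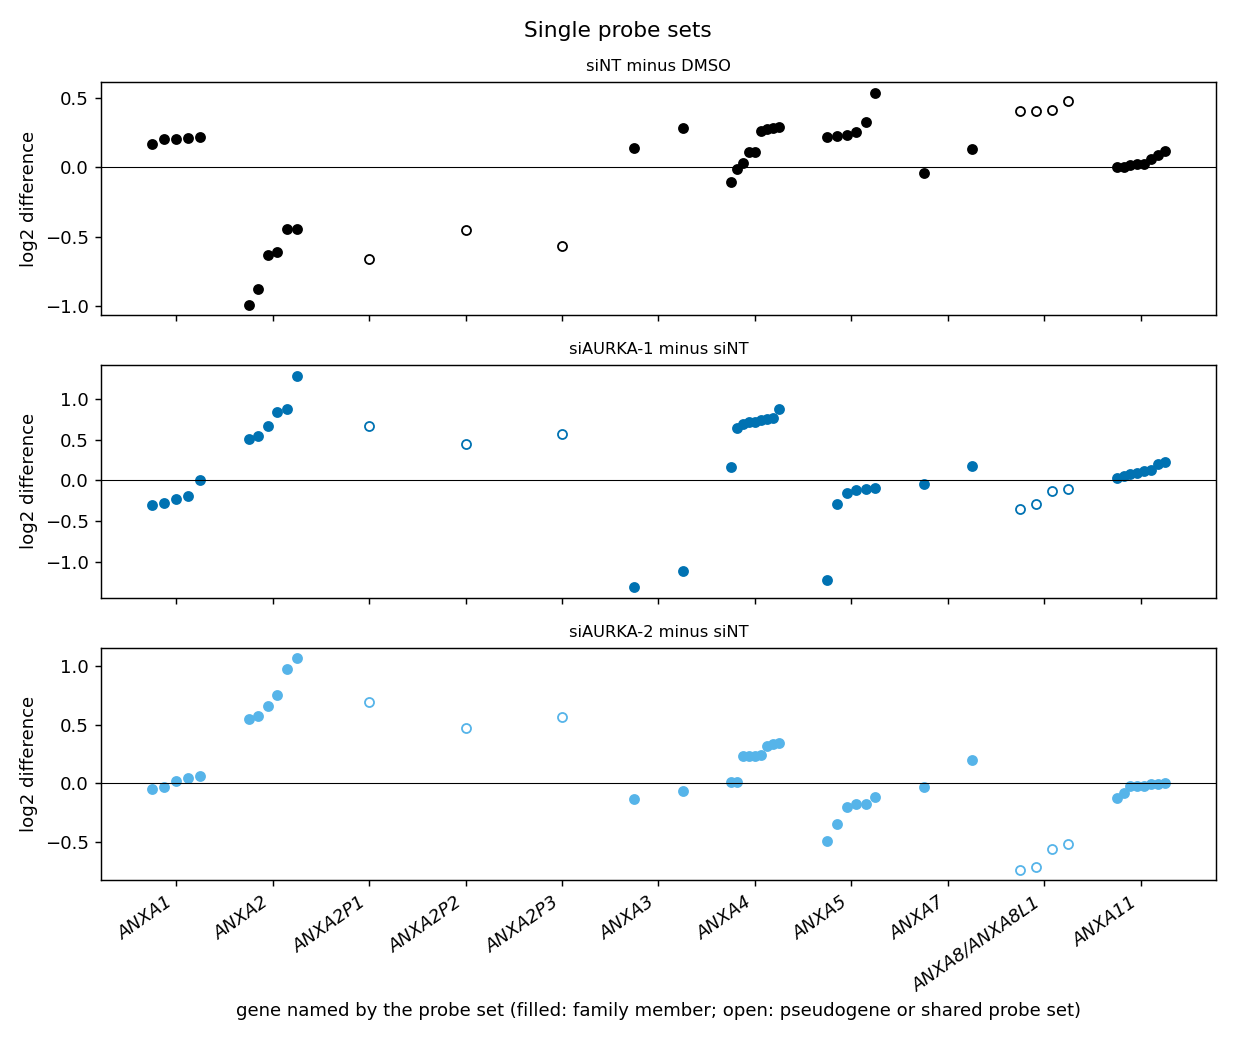
Each point is 1 probe set, plotted as the log2 difference named above its panel and grouped by the gene it names, filled for family members and open for pseudogenes or shared probe sets. The 6 ANXA2 probe sets and the 3 of its pseudogenes lie below 0 for siNT minus DMSO and above 0 for both siRNAs against siNT, and 1 ANXA5 probe set (-1.21) lies apart from its other 5 for siAURKA-1.

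With siAURKA-2, 2 of 10 annexins lay at least 1.5-fold from siNT, ANXA2 higher and ANXA10 lower, where 5.08% of all genes did (1.96% higher and 3.11% lower). At 2-fold ANXA10 alone remained, beside 1.26%. The count was 0 against DMSO, where 5.21% of all genes were past that fold, and 1 against the mean of both controls (4.63%). With MLN8237, ANXA10 was the only annexin past 1.5-fold, beside 0.482% of all genes (0.367% higher and 0.115% lower). The other 9 lay between -0.11 for ANXA11 and 0.12 for ANXA3. Against siNT there were 2, ANXA10 lower and ANXA2 higher (0.70), beside 1.61% of all genes. At 2-fold ANXA10 was 1 of the 2 genes lower with MLN8237, 0.011% of the table. These contrasts also led to the choice of the family, and nothing is read from the counts.

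By the median of their probe sets, the remaining members stayed close to level. ANXA1, a mediator of glucocorticoid action that restrains phospholipase A2 and neutrophils, read -0.01 with DMSO, -0.10 with MLN8237, 0.20 with siNT, -0.03 for siAURKA-1 and 0.17 for siAURKA-2. Its siNT and siAURKA-2 arrays lay above the other 3. ANXA5, the phosphatidylserine binder used to stain apoptotic cells, read -0.08, 0.00, 0.16, 0.01 and -0.01 in the same order of arrays. One of its 6 probe sets gave -1.21 for siAURKA-1 minus siNT, while the median was -0.16, so the value of ANXA5 depends on which probe set is taken. ANXA7 and ANXA11, which carry long N-terminal tails, ranged over 0.13 and 0.22. All 8 probe sets of ANXA11 were highest with siAURKA-1, where they read 0.08 to 0.22. Of all pairs of members, ANXA7 and ANXA11 had the smallest root mean square distance over the 5 arrays (0.08). Such a distance is small for any 2 genes that are nearly level, and they did not share a pattern. With MLN8237 against DMSO, ANXA7 was higher (0.09) and ANXA11 lower (-0.11).

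Genes with patterns like those of the annexins were sought by the root mean square distance of the 5 values, each gene taken relative to its mean. The values were not scaled, so few genes can lie near one that ranges as widely as ANXA10. By this measure no gene came close to ANXA10, which does not show that its shape over the arrays was unlike others. The nearest was SLC4A7, a sodium bicarbonate cotransporter gene, at 0.53, followed by C1GALT1 of O-glycan synthesis (0.53), HEG1 (0.54), GIMAP2 (0.54), THBS2, encoding thrombospondin-2 (0.54), and the drug efflux transporter gene ABCG2 (0.55). All 6 were higher with siNT than with DMSO, by 0.44 to 1.03. HEG1, THBS2 and ABCG2 were not below siNT with siAURKA-1 (0.15, 0.12 and 0.37). ANXA3 had nearer neighbours: CCN1, a matricellular YAP-responsive gene, at 0.03, SPAG1 and IFT20, which serve cilia, at 0.04 and 0.05, and PCGF6, a Polycomb ring finger gene, at 0.05. For ANXA9 they were KLHDC8B at 0.03, the sialic acid transporter gene SLC17A5 at 0.03, FAM174A at 0.05 and TMEM79 at 0.06. For siAURKA-1 minus siNT the neighbours of ANXA3 lay between -1.22 and -1.14, and those of ANXA9 between 1.08 and 1.24. Likeness over 5 arrays is a description and says nothing of shared control.

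**Figure D4:**
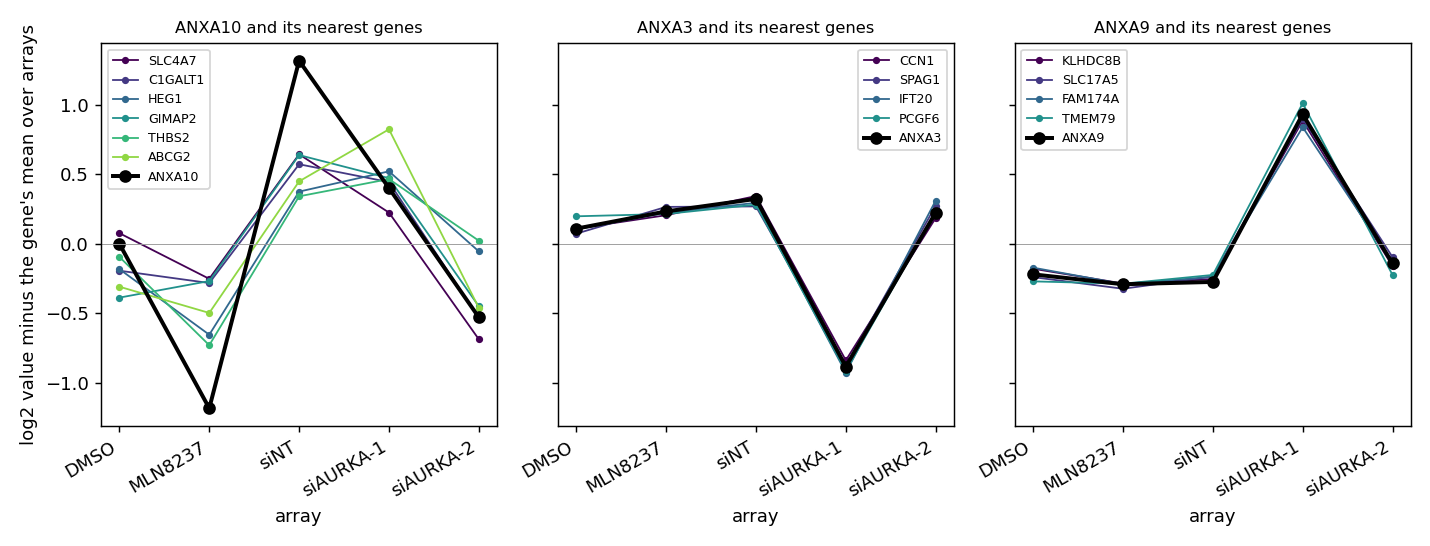
The vertical axis is the log2 value minus the mean of the gene over the 5 arrays on the horizontal axis, with lines drawn only to guide the eye, for ANXA10, ANXA3 and ANXA9 (black) and the genes nearest to each. The neighbours of ANXA3 and ANXA9 lie on top of them, whereas those of ANXA10 do not reach its siNT and MLN8237 values and stand 0.53 to 0.55 away.

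Genes of EF-hand proteins, annexin partners among them, were followed on a list of 16. Being on the list does not mean that a protein is known to bind an annexin tail. With siAURKA-1, 2 were at least 1.5-fold higher than siNT and 1 lower (median 0.03), beside 2.57% and 4.48% of all genes. With siAURKA-2 1 was higher (median -0.05), beside 1.96%. With MLN8237 0 were past that fold (median -0.09), beside 0.482% in either direction, and between the controls 1 was higher, beside 1.53%. S100A4, a partner of ANXA2 linked to cell motility, was higher with siAURKA-1 (1.58) and read -0.36 with siAURKA-2. S100A9, a calprotectin subunit, was higher with siAURKA-1 (1.15), was itself higher with siNT than with DMSO (0.59), and read -0.39 with MLN8237. S100A11, a partner of ANXA1 and ANXA2, was lower with siAURKA-1 (-1.11) and near siNT with siAURKA-2 (-0.04). Against DMSO S100A11 was -0.81. S100A13 read 0.58 with siAURKA-1, just short of 1.5-fold. GCA (grancalcin) was the gene higher with siAURKA-2 (0.75). PDCD6 (ALG-2) and PEF1, of the EF-hand group that includes partners of ANXA7 and ANXA11, were -0.35 and -0.36 on the siNT array relative to DMSO. S100A10, singled out after its values were seen because it pairs with ANXA2, was near level in the 4 comparisons (0.18, -0.03, 0.04, and 0.08 between the controls), without the low siNT value of ANXA2.

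**Figure D5:**
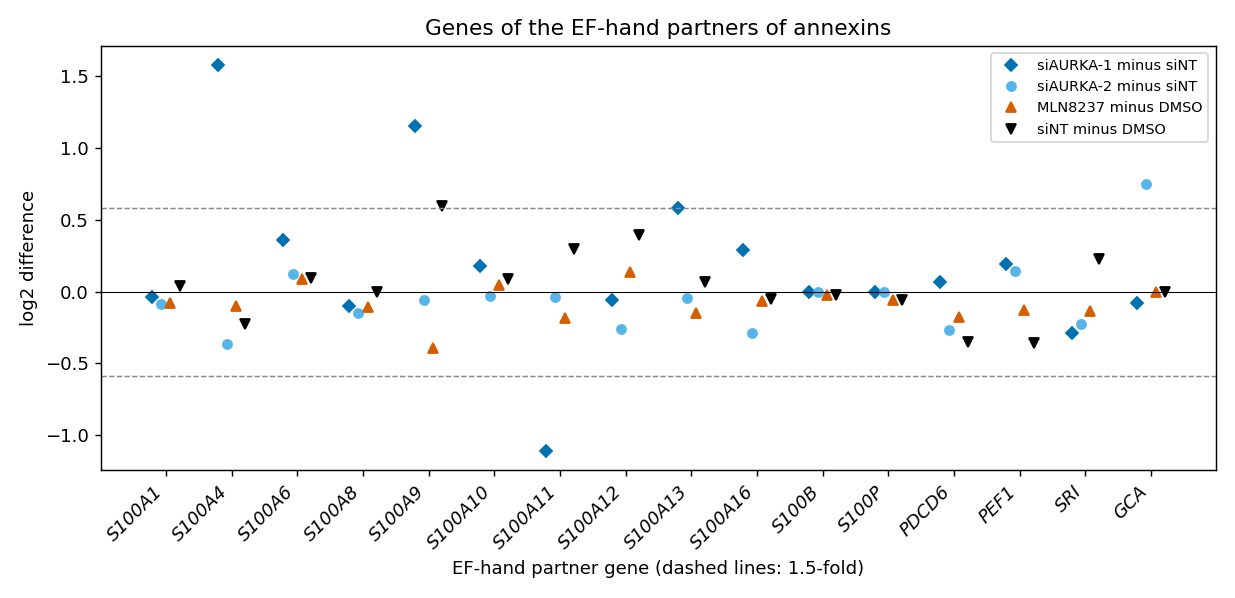
The vertical axis is the log2 difference for each of the 16 listed EF-hand genes on the horizontal axis, with 1 symbol per comparison and dashed lines at 1.5-fold. S100A4 (1.58), S100A9 (1.15) and S100A11 (-1.11) with siAURKA-1 and GCA (0.75) with siAURKA-2 lie outside the dashed lines, as does S100A9 between the controls (0.59).

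Receptors and enzymes of the annexin A1 pathway did not pass 1.5-fold. Of 10 genes, among them the formyl peptide receptors FPR1, FPR2 and FPR3 and the cytosolic phospholipase PLA2G4A, 0 were past that fold in any of the 4 comparisons. Of all genes, 7.05% were past it with siAURKA-1, 5.08% with siAURKA-2, 0.482% with MLN8237 and 2.08% between the controls. With shares that low, nothing is read from 0 of 10. The channel kinase gene TRPM7 had the highest value with siAURKA-1 (0.27) and between the controls (0.30).

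Plasminogen activation, which ANXA2 with S100A10 promotes at the cell surface, was read by 10 of 12 listed genes. With siAURKA-1, 2 of them were lower than siNT by 1.5-fold or more, beside 4.48% of all genes: SERPINE2, a protease inhibitor gene (-0.79), and PLGRKT, a plasminogen receptor gene (-0.64). Against DMSO SERPINE2 was -0.25, short of 1.5-fold, and PLGRKT -0.85. PLAU, encoding urokinase, was lower with siAURKA-2 (-0.72). It was also higher with MLN8237 than with DMSO (0.99) and higher with siNT than with DMSO (1.16), so that it was above DMSO with every other treatment (0.83 with siAURKA-1 and 0.44 with siAURKA-2). Against siNT its MLN8237 value was -0.17. The list's median was -0.09 for siAURKA-1, 0.00 for siAURKA-2, 0.13 for MLN8237 and 0.22 between the controls.

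Plasma membrane repair genes, 23 of 24 listed, showed a median of 0.16 for siAURKA-1, of 0.00 for siAURKA-2 and of -0.06 for MLN8237. With siAURKA-1, 3 were at least 1.5-fold higher and 2 lower, beside 2.57% and 4.48% of all genes. AHNAK2, encoding a giant scaffold related to the annexin A2 partner AHNAK, was higher with both siRNAs (2.41 for siAURKA-1, 0.98 for siAURKA-2), and by 2.99 and 1.56 against DMSO. CHMP2A of the ESCRT-III complex (0.82) and AHNAK (0.59) were the others that were higher. The caveolin gene CAV2 (-0.99) and CHMP4A (-0.59) were lower. Against DMSO AHNAK (0.20) and CHMP4A (-0.39) fell short of 1.5-fold, while CHMP2A (0.77) and CAV2 (-0.81) were past it. With siAURKA-2 AHNAK2 was the 1 gene past 1.5-fold, beside 1.96% of all genes higher, and CAV1 read -0.56 and CAVIN1 -0.55. Against DMSO CAVIN1 with siAURKA-2 was past that fold (-1.07) and CAV1 was not (-0.48). CAVIN1 was itself lower with siNT than with DMSO (-0.51). With MLN8237 0 of the 23 were past 1.5-fold, beside 0.482% of all genes.

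Other calcium-dependent phospholipid binders, 20 genes of the copine, synaptotagmin and related families, had medians of 0.01, 0.00 and 0.00. With siAURKA-1, 1 was at least 1.5-fold higher and 1 lower, beside 2.57% and 4.48% of all genes. These were the synaptotagmin-like genes SYTL2 (1.68) and SYTL5 (-0.62). With siAURKA-2, 1 was higher and 1 lower, beside 1.96% and 3.11%. The copine gene CPNE1 was higher (0.63) and ESYT1, which tethers endoplasmic reticulum to the plasma membrane, lower (-0.86). With MLN8237 0 were past that fold, beside 0.482%. Between the controls 2 were higher with siNT than with DMSO, SYT1 (0.76) and SYTL5 (0.66), beside 1.53%. Against DMSO SYTL5 with siAURKA-1 (0.04) and CPNE1 with siAURKA-2 (0.38) were short of 1.5-fold, and SYTL2 (2.21) and ESYT1 (-0.82) were past it.

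Epithelial markers, squamous ones among them, are given beside ANXA10 because they too differed between arrays, and their part in its values was not tested. KRT6A, KRT17 and TP63 were listed but had no value. Of the 9 with a value, 8 were below siNT with siAURKA-2, with a median of -0.21. The quartiles of all genes for that difference were -0.08 and 0.09. The markers ran from -1.82 for the basal keratin gene KRT5 to 0.00. KRT5 alone was past 1.5-fold, beside 3.11% of all genes lower, and the next lowest was CDH1 (-0.46). With siAURKA-1, 7 were above siNT (median 0.10), and the quartiles of all genes were -0.09 and 0.10. KRT19 (1.02) and CDH1, encoding E-cadherin (0.60), were past 1.5-fold, beside 2.57% of all genes higher. KRT5 (0.32) and KRT14 (0.10) were above siNT short of that fold, and DSG3 (-0.17) and DSC3 (-0.02) were below siNT. Against DMSO CDH1 was 0.52, short of 1.5-fold. With MLN8237 the median was -0.06 and KRT5 had the lowest value (-0.45). Between the controls it was -0.01, with DSG3, a desmosomal cadherin gene, past 1.5-fold (0.62). Because the values are centred, whether these markers are abundant cannot be read from them. Gastric and bladder markers (9 genes), fibroblast (8), leukocyte (7) and endothelial markers (7) had 0 genes past 1.5-fold in any of the 4 comparisons. Of all genes, 0.482% (MLN8237) to 7.05% (siAURKA-1) were past it, so nothing is read from 0 in lists this short. In bulk RNA, fewer cells of a kind and less RNA per cell cannot be told apart.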

How the data were processed

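Total RNA of GFP-SAS cells under 5 treatments was measured on 1 array each, with groups taken from the treatment label. Values are read as log2 signal made by robust multi-array average (RMA), which the submitters' processing notes name. Software, version and log base were not given in the sources used here. The median over the 5 arrays was 0 in all 49386 probe sets, so the deposited log2 values are taken as centred per probe set, a step that no source used here states. Of these, 45253 named 1 gene, 1327 several and 2713 none listed, and 93 were controls. Symbols were updated by Entrez number to the GRCh38.p14 RefSeq table, and a gene's value was the median of its probe sets. Differences and counts at 1.5-fold were computed with pandas 2.3.3 in Python 3.11.15 and checked on simulated data. No test was possible.

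The members, lists, thresholds and comparisons were chosen with earlier results of these data known. The naming rule took all members, AURKA, up to 4 genes per list and comparison with the largest absolute difference, the 6 genes nearest to ANXA10, and the 4 nearest to any other member at least 2-fold apart. Most genes named outside it are marked as chosen after their values were seen, or are among 5 or fewer past the threshold. FPR3, KRT14 and DSC3 meet neither condition and are named as further genes of their lists, as are the listed markers without a value. The ANXA2 pseudogenes, ANXA8 and ANXA8L1 are given as relatives of the members. Promoter sequences are RefSeq's, cut to the part before the start site. Alternatives were other probe set summaries, array centring, other controls and other folds.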

Additional observations from a re-analysis of the deposited data

How the results depend on the processing

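Of the 15 family and ANXA10 values that moved or turned, 12 did so under another control and 3 at another fold. For ANXA10, the other control array turned siAURKA-1 from -0.92 to 0.40 and gave -0.53 (siAURKA-2) and -2.50 (MLN8237). The mean of both control arrays gave -0.26, -1.19 and -1.84. Counts of annexins past 1.5-fold under the other control array became 3 for siAURKA-1, 0 for siAURKA-2 and 2 for MLN8237. Under the mean of both they were 3 for siAURKA-1 and 1 for siAURKA-2. At 2-fold they were 2 for siAURKA-1, 1 for siAURKA-2 and 1 between the controls. The family median with siAURKA-1 was 0.10 under the other control array. Of the 78 recomputed values, 24 could not move, because ANXA10 has 1 probe set and every array's median is already 0. Of the other 54, 39 moved by less than 0.138 or, for counts, by at most 1.5 times. That limit is the standard deviation, over genes, of siNT minus DMSO, divided by the square root of 2. It comes from 2 differently treated arrays and measures no spread between replicates. A value within it is therefore not shown to be stable. Of 144 recomputed values of the other 9 members, 60 could not move for the same reasons. Beyond these, ANXA3 and ANXA7 have 2 probe sets each, so the mean of probe sets equals their median and could not move either. Leaving out probe sets ending in s_at or x_at removed none of ANXA7. Past that limit 10 values moved, all with another probe set summary: 6 of ANXA5 and 4 of ANXA2. With the most variable probe set, siAURKA-1 gave -1.21 for ANXA5 and 1.28 for ANXA2. Without the probe sets whose names end in s_at or x_at, ANXA5 read -0.75 for siAURKA-1 and -0.42 for siAURKA-2. In each of these settings 6 annexins were past 1.5-fold with siAURKA-1, instead of 5, and nothing is read from that count. The values carry no signal over background, so genes near it could not be left out.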
